A study of Mus musculus with 31 samples.

Results

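The 34 hypoxia and glycolysis genes described here are a set of named genes, drawn up with earlier results of these data known and found by symbol among the 38406 rows of the count tables, and all 34 had a row in each of the 31 libraries. They fall into 19 genes of glycolysis (3 transporters of glucose and lactate, 13 enzymes and 3 switches of glycolytic flux) and 15 genes of the hypoxia response (the transcription factor subunit Hif1a, 2 of its oxygen sensors, 3 mitochondrial targets and 9 other targets). Together they held between 0.214% and 0.617% of the counted gene reads of a library.

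The libraries are bulk RNA-seq of CD45.2+ immune cells sorted by flow cytometry from AT3-OVA tumours, a triple negative mouse mammary carcinoma line that carries the model antigen ovalbumin, grown in the mammary fat pad of wild-type female C57BL/6 mice. Radiation was an electron beam aimed at the tumour site, with the rest of the animal shielded by lead, and only RNA of high integrity was sequenced. The 3x4Gy group received 3 fractions of 4 Gy at daily intervals and was collected 5 days after the last fraction (n = 6), and the 1x20Gy groups received 1 dose of 20 Gy and were collected 5 days (n = 6) or 13 days (n = 7) later. Each had its own mock group of tumour-bearing mice that were anaesthetized with ketamine and xylazine in the same way but not irradiated: 3x0Gy at day 5 (n = 4), 1x0Gy at day 5 (n = 4) and 1x0Gy at day 13 (n = 4). All groups therefore share the strain, the tumour and the anaesthetic. The ages of the mice are not given in the sources used here, and nothing in them says whether each library is a separate animal. The p-values below measure the spread between libraries, part of which may be technical.

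Cells that lack oxygen stabilise the alpha subunit of hypoxia-inducible factor (HIF), which pairs with its partner Arnt and binds hypoxia response elements. It switches on glucose transporters, glycolytic enzymes, Pdk1, which switches off pyruvate dehydrogenase, and genes such as Bnip3 and Egln3. Prolyl hydroxylases of the Egln family use oxygen to mark the alpha subunit for destruction, and Egln3 is itself a HIF target, so its RNA is often read as a report of HIF activity. Leukocytes in tumours also raise glycolysis on activation in the presence of oxygen, and macrophages and neutrophils are among the cells that carry much of this programme.

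The start of a hypoxia response element is the core ACGTG or GCGTG, searched here on both strands, so that CACGT and CACGC mark the opposite strand. RefSeq (GRCm38.p6) windows from 250 bases before to 50 bases after the start site were found for 31 of the 34 genes. In 26 of them (83.9%) the first listed window held either core, against 43.8% of all 32851 windows of that length. The windows of the 34 genes were also richer in G and C (median 65% against 52.7%), and ACGTG lies inside the E-box CACGTG, which 7.15% of all windows held. A match is a run of letters, not a measured binding site. The upstream stretches below belong to the genes that were lower in at least 2 of the 3 comparisons of irradiated with mock groups. They run 5′ to 3′ on the gene's strand with the core in capitals. Mif also met that rule, but its only match lies after the start site.
Pdk1: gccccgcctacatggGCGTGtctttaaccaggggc
Egln3: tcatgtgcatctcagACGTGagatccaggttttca
Bnip3: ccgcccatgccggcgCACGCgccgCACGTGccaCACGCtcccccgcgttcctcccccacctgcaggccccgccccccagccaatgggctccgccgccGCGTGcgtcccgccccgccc
Ero1l: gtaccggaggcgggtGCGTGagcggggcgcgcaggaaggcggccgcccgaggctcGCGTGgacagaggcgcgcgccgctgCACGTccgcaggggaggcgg
P4ha2: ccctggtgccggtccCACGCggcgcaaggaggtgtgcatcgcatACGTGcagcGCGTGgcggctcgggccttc
Pfkl: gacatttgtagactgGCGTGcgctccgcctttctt
The Pdk1 stretch lies at chr2:71873131-71873165 on the plus strand and the Egln3 stretch at chr12:54204084-54204118 on the minus strand. The Bnip3 stretch, with 5 matches of which 1 pair overlaps in an E-box, lies at chr7:138909522-138909638 on the minus strand. The Ero1l stretch (named Ero1a in RefSeq) is at chr14:45318616-45318715 on the minus strand with 3 matches, the P4ha2 stretch at chr11:54100802-54100874 on the plus strand with 3 matches, and the Pfkl stretch at chr10:78009887-78009921 on the minus strand with 1. All 6 lie upstream of the start site.

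Counted gene reads ranged from 2641229 to 7541144 per library. Reads that the counting assigned to no feature, called reads outside genes here, made up 5.65% to 32.0% of a library. They may include reads inside genes, such as in introns, since the annotation and strand setting are not given. The row RP23-81C12.3, named for a genomic clone, took 0.148% to 31.5% of the gene reads, with 19.2% to 31.5% in the 1x20Gy libraries of day 13 and 2.15% to 15.01% in their mocks. Levels are given as CPM, read counts relative to the library size after TMM scaling within a day, and levels are not compared between the days, whose libraries also carry different codes. Scaling by the total count instead shifted the median log2 fold change of all genes at day 13 to -0.23, from 0.01. The pan-leukocyte genes Ptprc, Laptm5 and Coro1a summed to 1228 to 3705 CPM over all libraries, and their sum moved with the groups. It was 1228 to 2356 CPM in the 3x0Gy mocks and 2487 to 3705 CPM after 3x4Gy, with no overlap. At day 5 it was 2290 to 2602 CPM in the 1x0Gy mocks and 2583 to 3498 CPM after 1x20Gy. At day 13 the mocks summed to 2364 to 2988 CPM and the irradiated libraries to 2551 to 3272 CPM. At the same time, epithelial genes summed to 157 to 2159 CPM and fibroblast and matrix genes to 12.0 to 208 CPM. In such bulk samples, fewer cells of a type and less RNA per cell cannot be told apart. The library 3x0Gy 2 stood apart, with the lowest share of reads outside genes (5.65%), the lowest share of RP23-81C12.3 (0.148%) and the highest macrophage sum of all libraries. Without it, the log2 fold changes after 3x4Gy of 16 of the 23 members not called there moved by over 1.5 times, and 2 of these (Pkm and Slc2a1) changed sign. Values without it are given beside the genes where it decides a call or a size.

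In the mock groups the programme was present at uneven levels, which can be compared between genes only per kilobase of annotated exon. At day 5 the 1x0Gy libraries held 13.7 CPM per kb of Slc2a1, the main glucose transporter of most cells, and 0.60 CPM per kb of Slc2a3, a high-affinity glucose transporter. Hk2, the inducible hexokinase, stood at 24.9 CPM per kb and the housekeeping Hk1 at 6.77. Ldha, the lactate-forming dehydrogenase, held 169 CPM per kb against 8.02 for Ldhb. Among the oxygen sensors Egln2 held 26.8 CPM per kb, Egln1 15.4 and Egln3 5.07, and Hif1a held 33.5 against 0.75 for Epas1, which encodes the other main HIF alpha subunit. P4ha2, a collagen prolyl hydroxylase, held 1.01 CPM per kb and its relative P4ha1 10.3. The same gene of each of these pairs was higher in all 6 groups.

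After irradiation the genes that passed the test were mostly lower, and a small set of HIF targets was lower in every comparison. A gene was called at an adjusted p below 0.05 (edgeR quasi-likelihood test, Benjamini-Hochberg over all genes tested). At day 5 after 3x4Gy, 2 of the 33 genes tested were higher and 8 lower, where 5.20% of all 12021 genes were higher and 7.09% lower. At day 5 after 1x20Gy, 1 of 33 was higher and 5 lower, where 3.67% of all genes were higher and 4.88% lower. At day 13 after 1x20Gy, 0 of 32 were higher and 15 lower, where 4.22% of all 11071 genes were higher and 3.83% lower. Of the members above 0 there, 2 (Hif1a and Slc2a3) had an unadjusted p below 0.05 by edgeR, and these 2 were called by DESeq2 and 0 by limma. Over all 11071 genes, 2583 had such an unadjusted p in either direction. Without the library 3x0Gy 2, 3 members were higher after 3x4Gy (Hif1a, Pfkp and Slc16a3) and 4 lower (Egln1, Egln3, P4ha2 and Pdk1), the calls of Bnip3, Ero1l, Mif and Pfkl ended, and the median log2 fold change given next was -0.15. Of all genes, that fit called 1151 of 12211, in place of 1477 of 12021. Further, without the day 5 library 1x0Gy 3 there was 1 after 1x20Gy, P4ha2. Over all genes 582 of 12187 were called there, in place of 1028 of 12021. The median log2 fold change of the tested members was -0.23, -0.28 and -0.45 in these comparisons, against -0.00, 0.02 and 0.01 over all genes. The share of reads outside genes, which can vary with RNA quality, moved with the groups. It was 5.65% to 21.5% in mocks and 21.1% to 28.1% after 3x4Gy, 15.9% to 18.4% and 17.6% to 28.8% after 1x20Gy at day 5, and 17.4% to 23.1% and 20.1% to 32.0% at day 13. With this share as a covariate the day 5 medians were -0.029 and -0.10, and the calls of Bnip3, Egln1, Ero1l, Mif and Pfkl after 3x4Gy and of Bnip3, Egln3, Ero1l and Pdk1 after 1x20Gy ended. For Bnip3 the log2 fold changes were then -0.69 and -0.79 (adjusted p = 0.294 and 0.152, edgeR). At day 13 the calls of Aldoa, Ankrd37, Gapdh, Ldha, Mif, Pfkfb3 and Pgam1 ended. Bnip3, Egln3, Ero1l and Pdk1 were lower in all 3 comparisons, Mif, P4ha2 and Pfkl in 2, and 10 genes in 1. The groups did not overlap at all for 2 members that were higher and 6 that were lower after 3x4Gy (9.58% of all genes, 3.91% higher and 5.67% lower), for 2 and 1 after 1x20Gy at day 5 (11.5%, 5.44% and 6.07%), and for 1 and 15 at day 13 (7.28%, 3.31% and 3.97%). No gene was called higher in one comparison and lower in another, and 14 were called in none.

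**Figure D1:**
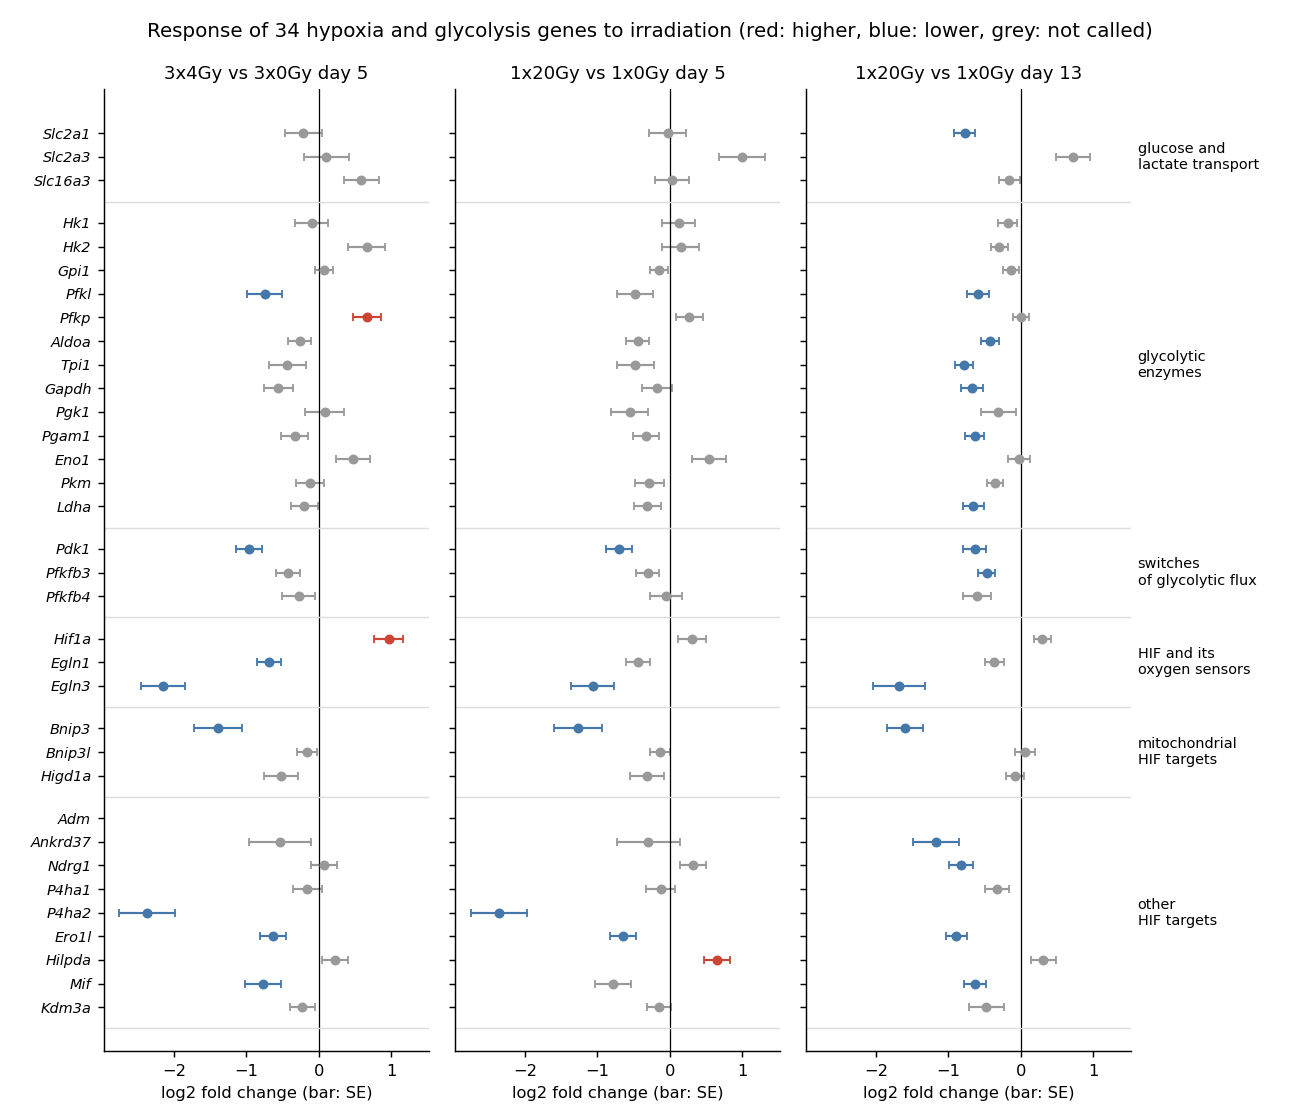
Log2 fold change (x axis, bar ± SE) of the 34 genes by role for the 3 comparisons of irradiated with mock groups, with called genes in red (higher) or blue (lower). Adm was too low to be tested in any comparison and P4ha2 at day 13, and Bnip3, Egln3, Ero1l and Pdk1 sit left of 0 in blue in each panel.

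The genes of glycolysis and of the hypoxia response were also counted apart, to be read against the shares of all genes given above. Of the 19 glycolysis genes, 1 was higher and 2 lower at day 5 after 3x4Gy, and 0 were higher and 1 lower after 1x20Gy. Of the 14 tested hypoxia-response genes, 1 was higher and 6 lower after 3x4Gy, and 1 was higher and 4 lower after 1x20Gy. At day 13 the counts were 9 of 19 glycolysis genes lower and 6 of 13 hypoxia-response genes lower. The median log2 fold change of the glycolysis genes was -0.20, -0.18 and -0.42, and that of the hypoxia-response genes -0.53, -0.31 and -0.48. The difference between the 2 sides was not tested.

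Hif1a encodes the oxygen-regulated subunit of HIF-1. Its level was 136, 155, 177 and 163 CPM in the 3x0Gy libraries and 234 to 421 CPM (median 279) in the 3x4Gy libraries. Every 3x4Gy library lay above every mock. Hif1a rose 1.959-fold after 3x4Gy (0.97 on the log2 scale, SE 0.20, adjusted p = 0.00276, edgeR). Errors after ± below are SEs of a log2 fold change unless named SD. After 1x20Gy the levels were 188 to 389 CPM (median 220) against 207, 237, 167 and 178 CPM in mocks at day 5, and 146 to 196 CPM (median 177) against 137, 148, 124 and 155 CPM at day 13. Both pairs of groups overlapped, and neither passed the test (log2 fold change 0.31 ± 0.20 and 0.30 ± 0.11, adjusted p = 0.366 and 0.121, edgeR). HIF-1 is controlled chiefly through its protein, which these libraries do not measure.

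Egln3 and Egln1 encode the HIF prolyl hydroxylases PHD3 and PHD2. Egln3 stood at 40.8, 27.9, 18.7 and 20.6 CPM in the 3x0Gy libraries and 3.84 to 8.68 CPM (median 5.38) after 3x4Gy. No 3x4Gy library reached the lowest mock, and Egln3 fell 4.45-fold (log2 fold change -2.15 ± 0.30, adjusted p = 6.63e-05, edgeR). The 3x0Gy mocks were themselves high for this gene: the 1x0Gy mocks of the same day held 11.4, 11.7, 19.2 and 11.8 CPM. The log2 fold change of 3x0Gy over 1x0Gy mocks was 0.98 ± 0.32, which did not pass the threshold (adjusted p = 0.836, edgeR). After 1x20Gy at day 5 Egln3 fell 2.09-fold, to 2.87 to 11.8 CPM (median 5.87; log2 fold change -1.06 ± 0.30, adjusted p = 0.0280, edgeR). The highest irradiated library lay level with the 3 lowest mocks, and the call ended when any 1 of 5 libraries was left out (the 1x20Gy libraries 4, 5 and 6 and the 1x0Gy libraries 3 and 4, log2 fold changes over all such fits -1.35 to -0.85). At day 13 the mocks held 27.3, 18.6, 33.0 and 17.8 CPM and the irradiated libraries 1.81 to 17.1 CPM (median 7.46). The groups did not overlap, and Egln3 fell 3.21-fold (log2 fold change -1.68 ± 0.36, adjusted p = 0.00938, edgeR), a call that ended without mock library 3 (adjusted p = 0.0561).

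Egln1, the more broadly expressed sensor, held 57.5, 88.9, 53.8 and 58.6 CPM in the 3x0Gy mocks and 26.8 to 45.8 CPM (median 42.7) after 3x4Gy. The groups did not overlap, and Egln1 fell 1.61-fold (log2 fold change -0.69 ± 0.17, adjusted p = 0.00922, edgeR). The mock at 88.9 CPM was the library that stood apart, and without it the log2 fold change was the lowest in size of all such fits, -0.50. After 1x20Gy the log2 fold change of Egln1 was -0.44 ± 0.17 at day 5 and -0.36 ± 0.13 at day 13 (adjusted p = 0.106 and 0.0879, edgeR), neither past the threshold.

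Bnip3, a mitochondrial protein of the BCL2 family that starts the removal of mitochondria under hypoxia, fell in all 3 comparisons. It held 41.8, 97.8, 31.2 and 43.9 CPM in the 3x0Gy mocks and 14.2 to 29.7 CPM (median 20.9) after 3x4Gy, with no overlap (2.62-fold lower, log2 fold change -1.39 ± 0.33, adjusted p = 0.00750, edgeR). Mock library 2, at 97.8 CPM, carried part of that size: without it the log2 fold change was -0.94 and the call ended (adjusted p = 0.0598). At day 5 the 1x0Gy mocks held 40.6, 24.6, 65.5 and 41.7 CPM and the 1x20Gy libraries 10.998 to 35.3 CPM (median 14.4), of which 1 passed the lowest mock. Bnip3 fell 2.41-fold there (log2 fold change -1.27 ± 0.33, adjusted p = 0.0170, edgeR), and the call ended without mock library 3 (log2 fold change -0.997, adjusted p = 0.104). At day 13 the mocks held 18.4, 26.7, 40.1 and 30.5 CPM and the irradiated libraries 4.15 to 14.6 CPM (median 10.2). These groups did not overlap, and the fall of 3.03-fold (log2 fold change -1.60 ± 0.25, adjusted p = 0.00171, edgeR) passed the test without any 1 library. The related mitophagy receptor Bnip3l ranged only from 24.2 to 43.9 CPM over all libraries, with log2 fold changes of -0.17, -0.14 and 0.06, and Higd1a, a small protein of the respiratory chain, had log2 fold changes of -0.52, -0.32 and -0.08. None of these passed the test. The -0.52 of Higd1a rests on 3x0Gy 2, at 415 CPM where the other mocks held 167 to 184 CPM, and was -0.098 without it. Without the library 3x4Gy 1 it was -0.72 (adjusted p = 0.0292, edgeR).

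Pdk1 encodes a kinase that switches off pyruvate dehydrogenase, the gate from glycolysis into the citric acid cycle. It held 30.3, 28.3, 29.1 and 25.4 CPM in the 3x0Gy mocks and 11.3 to 16.7 CPM (median 15.02) after 3x4Gy. The groups did not overlap, and Pdk1 fell 1.958-fold (log2 fold change -0.97 ± 0.18, adjusted p = 0.00119, edgeR), with all such fits without 1 library between -1.02 and -0.90. After 1x20Gy at day 5 it held 9.56 to 20.5 CPM (median 13.2) against 20.9, 17.6, 26.7 and 23.5 CPM. Here 1 irradiated library passed the lowest mock, and the fall of 1.62-fold (log2 fold change -0.70 ± 0.18, adjusted p = 0.0167, edgeR) lost its call without mock library 3 or without mock library 4. At day 13 it held 11.6 to 17.9 CPM (median 14.7) against 19.6, 24.8, 24.5 and 20.6 CPM, with no overlap (1.55-fold lower, log2 fold change -0.64 ± 0.16, adjusted p = 0.0234, edgeR). That call ended without mock library 2 or without mock library 3 (adjusted p up to 0.0996).

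The other flux switches are the kinases Pfkfb3 and Pfkfb4, which make the activator of phosphofructokinase. Pfkfb3 fell at day 13, from 130, 124, 185 and 138 CPM in mocks to 97.7 to 114 CPM (median 105), with no overlap (1.39-fold lower, log2 fold change -0.47 ± 0.12, adjusted p = 0.0248, edgeR). Without mock library 3, at 185 CPM, the log2 fold change was -0.33 and the adjusted p 0.130. At day 5 its log2 fold change was -0.43 ± 0.17 after 3x4Gy and -0.31 ± 0.17 after 1x20Gy (adjusted p = 0.0922 and 0.276, edgeR), and the former was -0.25 without 3x0Gy 2. Pfkfb4 was not called by edgeR (log2 fold change -0.28, -0.05 and -0.60), while DESeq2 called it at day 13 (adjusted p = 0.0497). Its mock and irradiated libraries overlapped at day 13, at 28.2 to 40.3 CPM against 13.3 to 34.3 CPM.

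P4ha2, which hydroxylates prolines of collagen, had the largest fall of the members at day 5. It held 7.32, 8.52, 6.17 and 7.29 CPM in the 3x0Gy mocks and 0.345 to 2.26 CPM (median 1.35) after 3x4Gy, and 5.87, 3.67, 9.33 and 6.27 CPM against 0.458 to 2.44 CPM (median 0.98) for 1x20Gy. Neither pair of groups overlapped. P4ha2 fell 5.20-fold and 5.15-fold (log2 fold change -2.38 ± 0.39 and -2.36 ± 0.38, adjusted p = 0.000339 and 0.000525, edgeR), and the call held without any 1 library. It passed the filter on low counts through its mocks. The irradiated libraries lie near the floor, so the sizes of these falls are uncertain. At day 13 the gene did not pass the filter on low counts; its mocks held 2.45, 7.28, 4.18 and 4.39 CPM and the irradiated libraries 0.346 to 2.41 CPM (median 1.73), every one below every mock. With no filter it was lower there (log2 fold change -1.53, adjusted p = 0.0164, edgeR). P4ha2 and P4ha1 are also made by matrix-forming cells, and the fibroblast and matrix markers moved with P4ha2, as given below. P4ha1 had log2 fold changes of -0.16, -0.12 and -0.32 and was not called.

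Ero1l encodes an oxidase that forms disulfide bonds in the endoplasmic reticulum. It held 65.9, 73.6, 56.9 and 75.2 CPM in the 3x0Gy mocks and 36.9 to 49.1 CPM (median 43.6) after 3x4Gy, with no overlap (1.55-fold lower, log2 fold change -0.63 ± 0.18, adjusted p = 0.0237, edgeR). After 1x20Gy at day 5 it held 24.9 to 57.8 CPM (median 36.1) against 65.1, 51.9, 79.1 and 49.6 CPM. The library 1x20Gy 2 lay among the mocks (1.57-fold lower, log2 fold change -0.65 ± 0.18, adjusted p = 0.0242, edgeR). Each day 5 call ended when any 1 of 3 libraries was left out: the libraries 3x4Gy 5, 3x0Gy 2 and 3x0Gy 4 in the former, with adjusted p up to 0.0676, and the libraries 1x20Gy 4, 1x0Gy 1 and 1x0Gy 3 in the latter, with adjusted p up to 0.136. At day 13 the mocks held 57.9, 51.5, 65.4 and 45.3 CPM and the irradiated libraries 23.2 to 35.1 CPM (median 30.4), with a wide gap between them. The fall of 1.85-fold (log2 fold change -0.89 ± 0.14, adjusted p = 0.00180, edgeR) held without any 1 library.

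**Figure D2:**
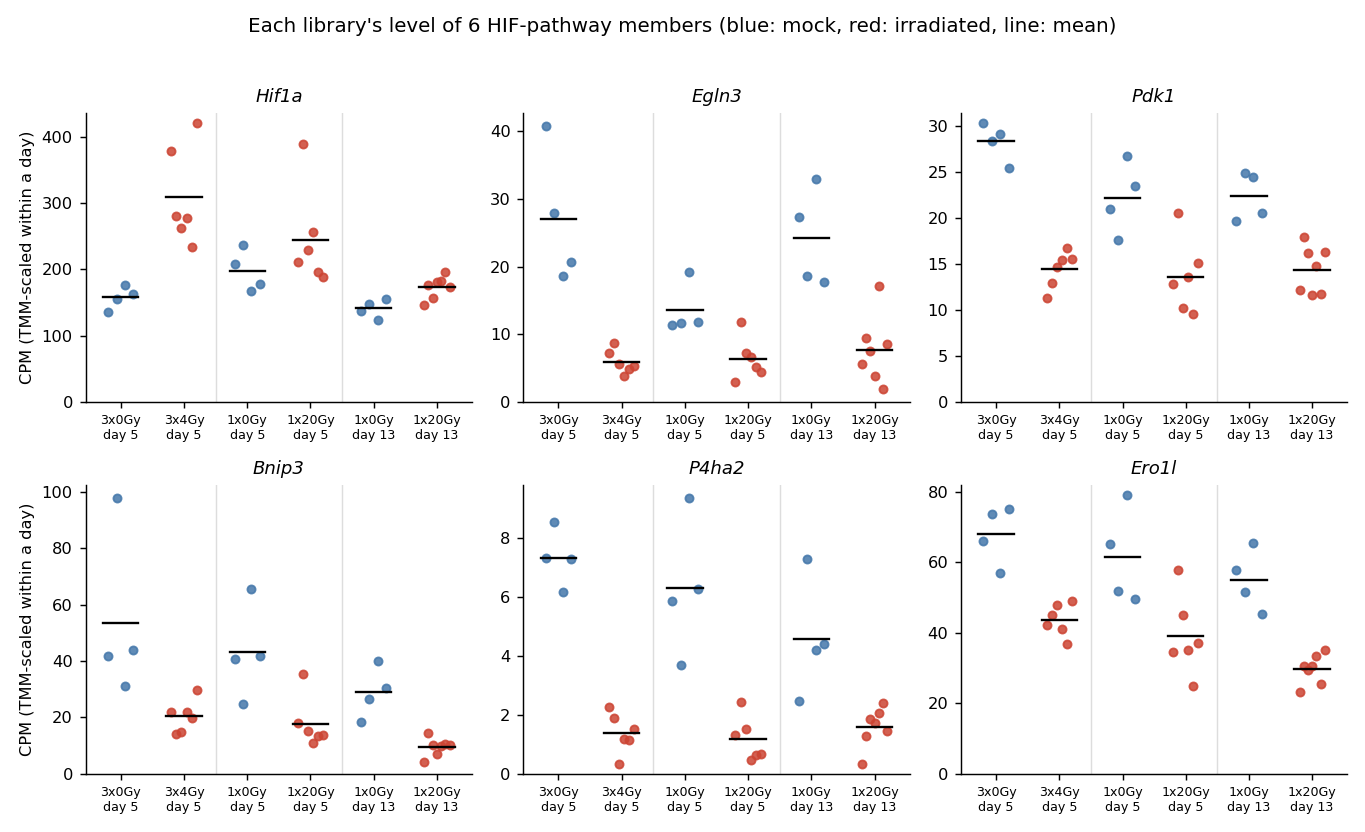
CPM (y axis, from 0) of Hif1a, Egln3, Pdk1, Bnip3, P4ha2 and Ero1l in each library of the 6 groups, mocks in blue, irradiated in red, lines at the means. Hif1a is separated only in the 3x4Gy pair, where irradiated libraries lie at 234 to 421 CPM above mocks at 136 to 177 CPM, and the other 5 genes have lower irradiated means in each pair.

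The remaining targets moved in fewer comparisons. Mif, a secreted cytokine that is abundant in macrophages, held 443, 651, 288 and 324 CPM in the 3x0Gy mocks and 185 to 367 CPM (median 213) after 3x4Gy. The groups overlapped, and the fall (log2 fold change -0.77 ± 0.25, adjusted p = 0.0469, edgeR) lost its call when any 1 of 6 libraries was left out: the 3x4Gy libraries 2 to 5 and the 3x0Gy libraries 1 and 2 (log2 fold change -0.49 without 3x0Gy 2). At day 5 after 1x20Gy its log2 fold change was -0.79 ± 0.25 (adjusted p = 0.0528 by edgeR, 0.0268 by DESeq2 and 0.0342 by limma). Of the fits without 1 library, 2 called Mif there, such as that without 1x20Gy 2 (log2 fold change -0.998, adjusted p = 0.0113, edgeR). With the epithelial and fibroblast level, the macrophage level or the share of reads outside genes as a covariate it was not called. At day 13 it fell 1.55-fold, from 169, 172, 242 and 189 CPM to 101 to 163 CPM (median 116; log2 fold change -0.63 ± 0.15, adjusted p = 0.0148, edgeR), with no overlap and its call ended without mock library 3 (adjusted p = 0.0818).

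Ndrg1, a stress-induced gene, and Ankrd37, a small HIF target of unclear role, were called at day 13. At day 5 the log2 fold changes of Ankrd37 were -0.54 and -0.30, and its response was not shown to differ between the days. Ndrg1 held 72.3, 81.4, 84.5 and 76.4 CPM in mocks and 31.5 to 62.9 CPM (median 44.0) after 1x20Gy, with no overlap (1.77-fold lower, log2 fold change -0.83 ± 0.17, adjusted p = 0.00814, edgeR), and its call held without any 1 library. Ankrd37 held 3.68, 3.78, 3.34 and 5.08 CPM in mocks and 0.867 to 2.90 CPM (median 1.63) after 1x20Gy (log2 fold change -1.17 ± 0.32, adjusted p = 0.0320, edgeR). Its groups did not overlap, but leaving out any 1 of the 4 mocks, or irradiated library 4 or 6, ended the call (adjusted p up to 0.121). Ankrd37 passed the filter on low counts there through its mocks. Hilpda, which blocks the breakdown of lipid droplets, went the other way. It rose after 1x20Gy at day 5, from 233, 255, 212 and 195 CPM to 293 to 408 CPM (median 352), with no overlap (1.57-fold higher, log2 fold change 0.66 ± 0.18, adjusted p = 0.0244, edgeR). The call ended when any 1 of 6 libraries was left out (the 1x20Gy libraries 2, 3 and 4 and the 1x0Gy libraries 1, 3 and 4, adjusted p up to 0.104). It also ended with scaling by library size. Hilpda had log2 fold changes of 0.22 after 3x4Gy and 0.31 at day 13 and was not called there. Kdm3a, a histone demethylase, had log2 fold changes of -0.23, -0.14 and -0.48 and was not called. At day 13 it was called without the library 1x20Gy 5 (log2 fold change -0.67, adjusted p = 0.0341, edgeR) and with the share of reads outside genes as a covariate (-0.88, adjusted p = 0.0457). Adm, the vasodilator adrenomedullin, stayed at or below 3.06 CPM in every library and was not tested.

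Of the 3 transporters, Slc2a1 was called, at day 13. Its mocks held 33.4, 51.5, 57.1 and 44.8 CPM and the irradiated libraries 22.9 to 33.1 CPM (median 27.3), a narrow gap at the edge (1.71-fold lower, log2 fold change -0.78 ± 0.15, adjusted p = 0.00530, edgeR). The call held without any 1 library. At day 5 its log2 fold changes were -0.21 ± 0.26 and -0.03 ± 0.26, and the difference between the days after 1x20Gy did not pass the test. Slc2a3 pointed the other way, with log2 fold changes of 0.11, 1.00 and 0.72. It missed the threshold after 1x20Gy at both days by edgeR (adjusted p = 0.0514 and 0.0737) and passed it by DESeq2 (0.0304 and 0.0426). With the share of reads outside genes as a covariate it was called higher at both days (1.27 and 0.96, adjusted p = 0.0344 and 0.0462, edgeR). Of the fits without 1 library, 2 at day 5 after 1x20Gy and 3 at day 13 called it. At day 13 every irradiated library (8.95 to 22.0 CPM, median 14.3) lay above every mock (7.97 to 8.78 CPM). Slc16a3, the lactate exporter MCT4, had log2 fold changes of 0.59, 0.03 and -0.16 and was not called. After 3x4Gy it was called without 3x0Gy 2, at 154 CPM the highest of the mocks (log2 fold change 0.85, adjusted p = 0.0322, edgeR), and with the share of reads outside genes as a covariate (0.96, adjusted p = 0.0379).

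Along the glycolytic chain, 2 of the 13 enzymes were called at day 5, both after 3x4Gy, and 6 at day 13. Phosphofructokinase, the committed step, changed its isoenzymes in opposite directions after 3x4Gy. Pfkl, the liver-type subunit, held 36.3, 60.6, 27.2 and 30.4 CPM in the 3x0Gy mocks and 12.9 to 37.4 CPM (median 21.1) after 3x4Gy. Pfkp, the platelet-type subunit, held 95.2, 142, 123 and 100 CPM and 146 to 247 CPM (median 159). Pfkl overlapped between groups and Pfkp did not. Pfkl fell 1.68-fold (log2 fold change -0.75 ± 0.25, adjusted p = 0.0487, edgeR) and Pfkp rose 1.59-fold (log2 fold change 0.67 ± 0.19, adjusted p = 0.0249, edgeR). Both calls were fragile: that of Pfkl ended without any 1 of 7 libraries (the 3x4Gy libraries 2 to 6 and the 3x0Gy libraries 1 and 2, log2 fold change -0.45 without 3x0Gy 2), and that of Pfkp without any 1 of 4 (the 3x4Gy libraries 1 and 6 and the 3x0Gy libraries 1 and 4, adjusted p up to 0.0798). The call of Pfkp also ended with scaling by library size. After 1x20Gy at day 5, 0 of the 13 enzymes were called by edgeR, 3 had an unadjusted p below 0.05, DESeq2 called 1 (Aldoa) and limma 0.

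At day 13, 6 of the 13 enzymes fell, and Pfkl was again among them (19.6, 23.7, 19.4 and 17.1 CPM in mocks, 11.1 to 15.004 CPM after 1x20Gy, median 13.3, log2 fold change -0.59 ± 0.15, adjusted p = 0.0219, edgeR). Tpi1, triose phosphate isomerase, held 98.4, 109, 145 and 114 CPM in mocks and 60.7 to 76.5 CPM (median 66.1), the clearest gap of the enzymes (1.72-fold lower, log2 fold change -0.78 ± 0.12, adjusted p = 0.00171, edgeR). Ldha, which turns pyruvate into lactate, held 339, 351, 567.98 and 489 CPM in mocks and 236 to 333 CPM (median 283), separated by a few CPM (1.57-fold lower, log2 fold change -0.65 ± 0.14, adjusted p = 0.0117, edgeR). Pgam1, phosphoglycerate mutase, held 238, 265, 385 and 304 CPM in mocks and 156 to 212 CPM (median 201) after 1x20Gy (1.55-fold lower, log2 fold change -0.64 ± 0.13, adjusted p = 0.00903, edgeR). Aldoa, the main aldolase, held 222, 231, 302 and 244 CPM and 147 to 212 CPM (median 194; log2 fold change -0.42 ± 0.12, adjusted p = 0.0470, edgeR). Gapdh, the dehydrogenase of the next step, held 19.6, 25.1, 23.4 and 23.3 CPM and 11.8 to 17.3 CPM (median 13.3; log2 fold change -0.67 ± 0.15, adjusted p = 0.0125, edgeR). In each of these 6 enzymes every irradiated library lay below every mock.

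The count at day 13 depended on the library 1x0Gy 3, as did that over all genes. It had the highest level of Ldha, Pgam1, Tpi1, Aldoa and Slc2a1 of the 4 mocks, and a share of 2.15% for RP23-81C12.3, the lowest of the group. That share was 5.54% in 1x0Gy 4, and 15.01% and 14.30% in 1x0Gy 1 and 2. Ldha, Pgam1, Tpi1, Aldoa and Mif were each higher in both 1x0Gy 3 and 4 than in 1x0Gy 1 or 2. Slc2a1, Egln3 and Gapdh did not split this way. No fit left out 1x0Gy 3 and 4 together, so how far the falls rest on both was not tested. Without 1x0Gy 3, 5 of the 32 members tested were lower in place of 15. Of all genes, 306 of 11182 were called in that fit, in place of 891 of 11071. Over all fits without 1 library the count ranged from 5 to 17. Without that mock the calls of Ldha, Gapdh, Pgam1 and Pfkl ended (adjusted p = 0.0666, 0.0530, 0.0510 and 0.0661), and the call of Aldoa ended in 9 of the 11 fits that left out 1 library. Tpi1, Slc2a1, Bnip3, Ero1l and Ndrg1 passed the test in all 11.

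**Figure D3:**
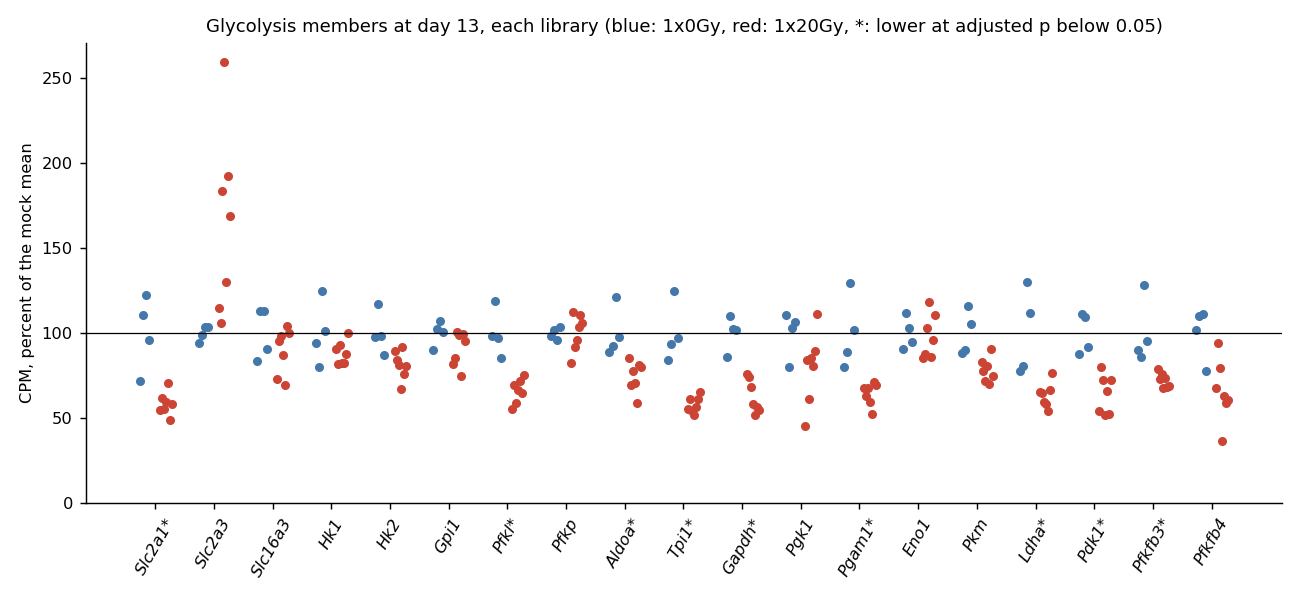
CPM of the 19 glycolysis genes at day 13 as a percent of the mock mean (y axis, from 0), 1 point per library, 1x0Gy in blue and 1x20Gy in red, with genes lower at the threshold starred. The 9 starred genes have every red point below every blue one, Slc2a3 has every red point above, and Hk1, Hk2, Gpi1, Pfkp, Pgk1, Eno1, Pkm, Slc16a3 and Pfkfb4 overlap.

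The other 7 enzymes at day 13, Hk1, Hk2, Gpi1, Pfkp, Pgk1, Eno1 and Pkm, had log2 fold changes from -0.35 (Pkm, adjusted p = 0.0673, edgeR; 0.0236 by DESeq2) to 0.00 (Pfkp). Hk2, a hexokinase of the first step of glucose use, had a log2 fold change of 0.66 ± 0.26 after 3x4Gy (adjusted p = 0.0961, edgeR), 0.15 after 1x20Gy and -0.30 at day 13. The value after 3x4Gy was 0.36 without 3x0Gy 2, which held 37.1 CPM of Hk2 where the other mocks held 131 to 174 CPM, and 0.89 without 3x0Gy 4 (adjusted p = 0.0443, edgeR). Eno1, enolase, had 0.47 (0.21 without 3x0Gy 2), 0.54 and -0.02, and its 1x20Gy libraries at day 5 (16.4 to 25.7 CPM) lay above all mocks (12.9 to 14.9 CPM) without passing the test (adjusted p = 0.171, edgeR). With only the groups compared in the fit, Eno1 was called higher there (log2 fold change 0.53, adjusted p = 0.0409, edgeR).

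Levels of several members are uncertain because their transcripts share sequence with other genes, so that the counting of uniquely placed reads could lose or split them. Of all 50-base windows of a gene's longest coding transcript, 82.5% of Gapdh, 76.4% of Mif, 72.2% of Eno1, 68.0% of Pgk1 and 62.4% of Bnip3 also occur in another annotated gene; for Gapdh 215 of the 222 such genes are annotated as pseudogenes. Pgam1 shared 41.5%, Pfkp 17.1%, Ldha 16.6%, Ndrg1 14.6%, Aldoa 13.5% and Ankrd37 11.4%. The low level of Gapdh (14.3 to 23.3 CPM in the group means) is therefore no measure of its expression. Egln1, Egln3, Ero1l, Hilpda, P4ha2 and Pdk1 are among the 13 members that shared none. At day 13, 7 of the 17 tested members with at least 90% of windows of their own were lower.

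**Figure D4:**
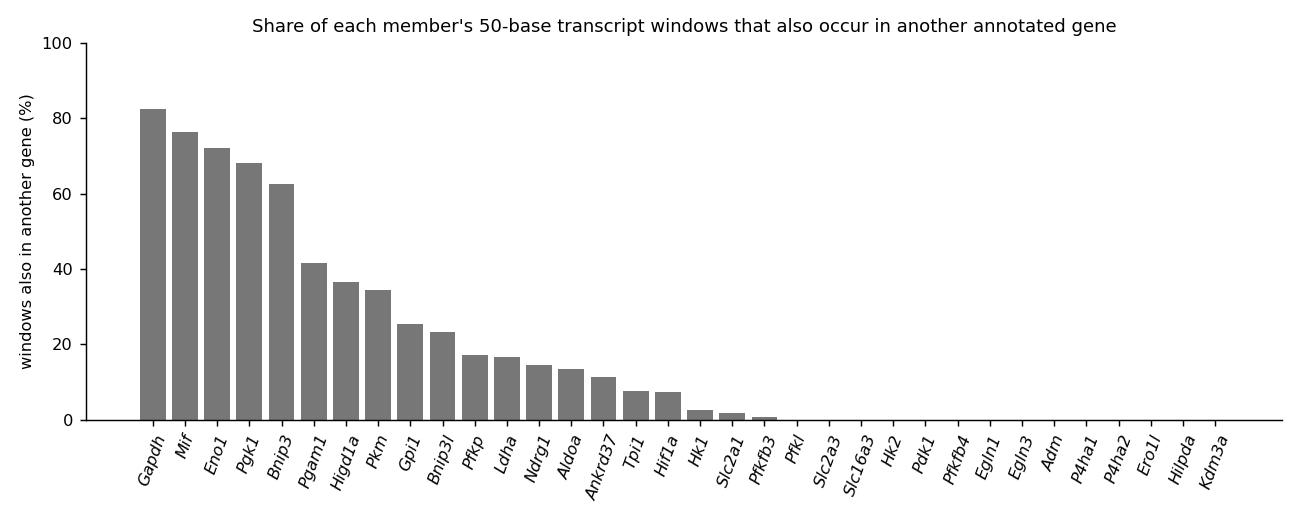
Percent of each member's 50-base transcript windows (y axis) that also occur in another annotated gene, 1 bar per gene. The bars of Gapdh, Mif, Eno1, Pgk1 and Bnip3 are above 60%, and 13 genes have none.

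Genes around the members, in lists drawn up from textbook roles, moved in part alongside them. Of 13 tested isoenzymes and partners of glycolysis, Aldoc and Bpgm fell after 3x4Gy, Aldoc and Ldhb fell after 1x20Gy at day 5, and Aldoc fell at day 13 (1 of 11 tested). Aldoc, the brain-type aldolase, went from 96.0 ± 31.5 CPM (SD, n = 4) to 24.0 ± 8.32 (n = 6) after 3x4Gy, from 64.3 ± 20.1 (n = 4) to 16.8 ± 4.32 (n = 6) after 1x20Gy, and from 53.7 ± 15.6 (n = 4) to 19.3 ± 7.80 (n = 7) at day 13. These falls of 3.97-fold, 3.79-fold and 2.77-fold (adjusted p = 2.28e-05, 7.39e-05 and 0.00282, edgeR) came with no overlap, where Aldoa had log2 fold changes of -0.27, -0.44 and -0.42. Of the other genes of the HIF pathway, only Arnt2 was called, higher after 1x20Gy at day 5 (log2 fold change 1.41 ± 0.38, adjusted p = 0.0230, edgeR), while the subunit Arnt, the sensor Egln2, Vhl and Epas1 were not called in any comparison.

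Of 23 tested hypoxia-induced genes outside the members, 2 were higher and 7 lower after 3x4Gy, and 2 higher and 3 lower after 1x20Gy at day 5. At day 13, 1 of 21 was higher and 8 were lower. Car12, a carbonic anhydrase of the cell surface, fell in all 3 comparisons: from 13.5 ± 3.10 CPM (SD, n = 4) to 1.21 ± 0.513 (n = 6) after 3x4Gy, from 8.03 ± 3.68 (n = 4) to 0.971 ± 0.222 (n = 6) after 1x20Gy, and from 6.74 ± 3.52 (n = 4) to 0.874 ± 0.679 (n = 7) at day 13. Its estimated falls of 11.2-fold, 7.98-fold and 7.13-fold exceeded those of any member (adjusted p = 4.23e-07, 8.85e-06 and 0.00171, edgeR). Car12 passed the filter on low counts through its mocks. Its irradiated means, at most 1.21 CPM, lie near the floor, so the sizes of these falls are uncertain. Plin2, the coat protein of lipid droplets, fell 1.63-fold and 2.11-fold after 1x20Gy at days 5 and 13, where Hilpda was higher or not called. Rora, a nuclear receptor, rose 2.71-fold, 2.75-fold and 1.80-fold, and Ddit4, an inhibitor of mTORC1, rose 1.89-fold and 2.89-fold at day 5 (adjusted p = 0.00721 and 0.000176, edgeR). Slc6a8, the creatine transporter, fell 2.64-fold after 3x4Gy and 1.95-fold at day 13.

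Routes that use glucose or pyruvate elsewhere were almost uncalled. Of 7 genes of the pentose phosphate pathway, Tkt, transketolase, rose 1.52-fold after 3x4Gy (adjusted p = 0.0237, edgeR) and no other was called. Of 21 genes of pyruvate dehydrogenase and the citric acid cycle, Suclg2 fell after 3x4Gy (adjusted p = 0.0494, edgeR). Of 19 nuclear-encoded genes of the respiratory chain, Uqcrc2 fell at day 13 (adjusted p = 0.0406, edgeR). The median log2 fold changes of the respiratory chain list were -0.06, 0.01 and -0.20.

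The 2 regimens at day 5 were compared directly, each against its own mock. None of the 33 members differed between them by edgeR, DESeq2 or limma, and edgeR called 0% of all 12021 genes, where DESeq2 called 1 gene. An unadjusted p below 0.05 by edgeR was found for 2 of the 33 members and for 714 of all 12021 genes, a like share. The 2 members were Egln3, with a difference of log2 fold changes (3x4Gy minus 1x20Gy) of -1.09 (unadjusted 95% interval -1.93 to -0.25), and Hif1a, with 0.66 (0.12 to 1.198), both at an adjusted p of 0.804. For P4ha2, Pdk1 and Ero1l the responses to 3x4Gy and to 1x20Gy are given above side by side, and a missed threshold does not show that they act alike. On simulated counts the test between the regimens recovered 33% of 2-fold changes. No member was called between the 2 mock groups of day 5 by edgeR, DESeq2 or limma either. There, 2 members (Egln3 and Pfkl) had an unadjusted p below 0.05 by edgeR, as had 667 of all 12021 genes, a like share. By edgeR 0% of all genes were called (DESeq2 called 2 genes). On simulated counts the test between these mocks recovered 45% of 2-fold changes. No member had mock groups that did not overlap, where 3.80% of all genes did (2.04% higher and 1.76% lower in 3x0Gy). Between days 5 and 13 after 1x20Gy, 1 of 33 members had a different response, where 0.423% of all 12061 genes did (0.207% higher and 0.216% lower): Ndrg1, which had a log2 fold change of 0.32 at day 5 and -0.83 at day 13 (difference -1.13 ± 0.25, adjusted p = 0.0450, edgeR). That call ended in 16 of 21 fits without 1 library, with limma voom (adjusted p = 0.0572) and with upper quartile scaling (0.0508). Of the 9 glycolysis genes called at day 13, 8 were not called after 1x20Gy at day 5, and they are not shown to respond differently on the 2 days.

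Markers of other cells moved with these results. Of 6 tested fibroblast and matrix genes, all fell after 3x4Gy, 2 after 1x20Gy at day 5 and 4 at day 13, and their sum went from 91.3 to 208 CPM in mocks to 15.9 to 49.4 CPM after 3x4Gy, from 55.5 to 198 CPM to 12.0 to 66.8 CPM after 1x20Gy at day 5, and from 40.4 to 79.0 CPM to 14.2 to 32.9 CPM at day 13. Of 9 epithelial genes, 2 fell after 3x4Gy and 5 after 1x20Gy at day 5, and at day 13 2 of 8 rose and 1 fell. The epithelial sum was 488 to 1121 CPM in mocks and 168 to 759 CPM after 3x4Gy, 435 to 629 and 157 to 525.9 CPM after 1x20Gy at day 5, and 688 to 929 and 743 to 2159 CPM at day 13. Of 9 macrophage genes none was called at day 5 and 3 fell at day 13, when their sum was 7169 to 9640 CPM in mocks and 5495 to 7621 CPM after irradiation. Of the neutrophil genes, 1 of 7 rose after 3x4Gy, 3 of 7 after 1x20Gy at day 5 and 3 of 6 at day 13, none fell, and Ly6g, the defining neutrophil gene, was at 0 in all libraries. Their sum was 145 to 331 CPM in mocks and 398 to 546 CPM after 3x4Gy, 191 to 318 and 376 to 869 CPM after 1x20Gy at day 5, and 230 to 310 and 300 to 472 CPM at day 13, where the groups overlapped. Both tested erythroid genes (Hba-a1 and Hba-a2) fell in each day 5 comparison and neither was called at day 13, and the erythroid sum went from 26.0 to 60.9 CPM in mocks to 4.13 to 17.8 CPM after 3x4Gy and from 37.5 to 81.3 CPM to 13.1 to 27.0 CPM after 1x20Gy. Of the endothelial genes 2 of 5, 1 of 5 and 2 of 4 rose in the 3 comparisons. Of 6 dendritic cell genes 2, 1 and 1 rose, and of the mast cell and basophil genes 1 of 3, 2 of 3 and 0 of 2. Of 5 NK cell genes 1 fell after 3x4Gy and 3 rose at day 13, when 2 of 7 T cell genes also rose. Of 6 cell cycle genes 1 and 2 rose at day 5 and 1 fell at day 13.

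**Figure D5:**
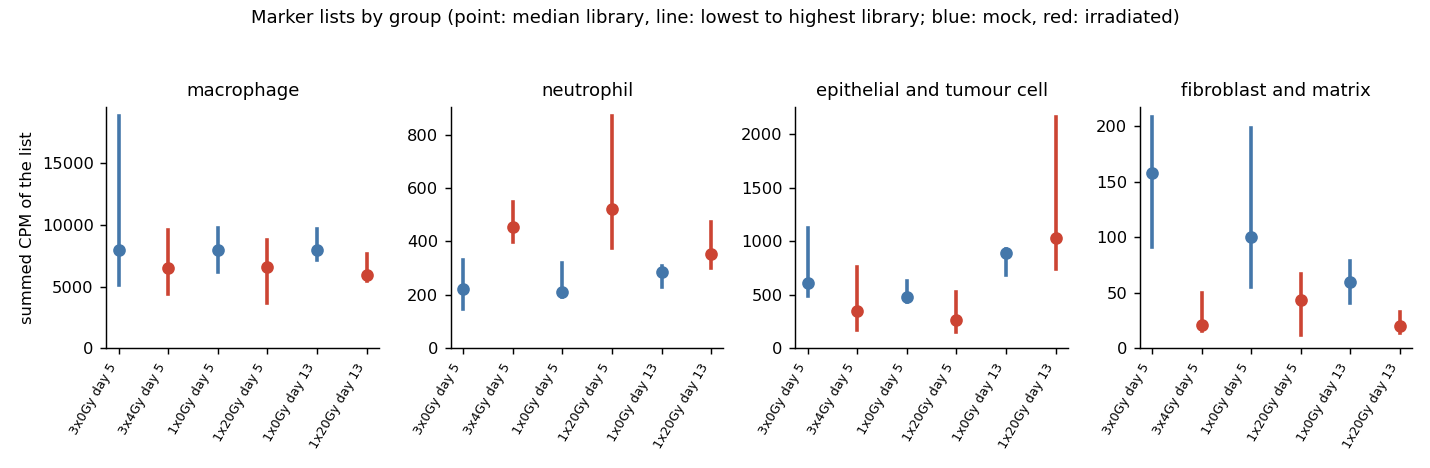
Summed CPM (y axis, from 0) of 4 marker lists in the 6 groups, with the median library as a point and the lowest to highest library as a line. The median fibroblast and matrix sum is lower in each irradiated group, the median neutrophil sum is higher, and the macrophage sum overlaps between irradiated and mock libraries in each pair.

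With the mean level of epithelial and fibroblast genes as a covariate, 3 of the 10 calls after 3x4Gy held (Egln1, Egln3 and Pdk1), none of the 6 after 1x20Gy at day 5 and 7 of the 15 at day 13, and no sign changed. Of the 31 log2 fold changes 1 shrank by more than 1.5 times, that of Egln3 after 1x20Gy at day 5 (-0.70 in place of -1.06). P4ha2 had a log2 fold change of -2.03 in place of -2.38 after 3x4Gy (adjusted p = 0.0724, edgeR), and Bnip3 -1.78 in place of -1.39. With the macrophage level as a covariate, chosen after seeing the data, 8 of the 10, 5 of the 6 and 0 of the 15 calls held. At day 13 that fit called 0 of all 11071 genes, and log2 fold changes of 7 of the 15 genes shrank by more than 1.5 times, such as Slc2a1 from -0.78 to -0.33, Pdk1 from -0.64 to -0.30 and Pfkfb3 from -0.47 to -0.18. That of Ero1l was -0.87 in place of -0.89, and Ndrg1, Pfkl, Mif and Ankrd37 were as large or larger. With the neutrophil level as a covariate, also chosen after seeing the data, Bnip3 and Ndrg1 remained called at day 13, and 13 calls ended. Of those 15 log2 fold changes 1 shrank by more than 1.5 times, that of Aldoa, and 10 were larger in size, such as that of Egln3 (-2.92 in place of -1.68). How much of each fall goes with the makeup of the sorted cells was not tested further.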

How the data were processed

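The authors deposited 1 table of read counts per gene symbol and library. Per the submitters' processing notes, bcl2fastq 2.20.0.422, cutadapt 1.5, HISAT2 2.0.4 and HTSeq 0.9.1 were used with builds GRCm38 and mm10; strand setting and annotation are not given in the sources used here. The 5 summary lines of each table, which name no gene, were left out of library sizes. Groups follow the sample titles. Genes were filtered (filterByExpr, minimum count 10, minimum total 15), scaled by TMM and tested with the edgeR 4.0.16 quasi-likelihood test in R 4.3.3, two-sided, over the 20 libraries of day 5, the 11 of day 13, or all 31 for the difference of days, with Benjamini-Hochberg adjustment over all genes tested. SE is the absolute log2 fold change divided by the root of F. Covariates are mean log2 CPM of a marker list with a prior count of 2, and counting error falls with the depth given in the report. Member and list genes were chosen with earlier results of these data known; no set test was run. All 34 members were described, with each library's value for the members called; from the other lists at most the 3 called genes with the largest change per comparison and a mean of at least 5 CPM were named (Arnt2, Slc6a8 and others), and the counts cover the rest; 1 gene that met this rule is not reported here. DESeq2 1.42.0, limma 3.58.1, other scalings, filters, covariates, a replicate block and each library left out were the alternatives. Positions, exon lengths and shared windows came from the GENCODE M21 annotation and transcripts, promoter windows from RefSeq GRCm38.p6. On counts simulated with known changes, the day 5 3x4Gy test recovered 63% of 2-fold and 93% of 4-fold changes, that of 1x20Gy 68% and 90%, and that of day 13 76% and 96%. The test of the difference of regimens recovered 33% and 77%, that of the 2 mock groups 45% and 93%, and that of the difference of days 37% and 84%.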

Additional observations from a re-analysis of the deposited data

Results flagged for a closer look

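Within groups of 4 to 7 libraries, 1 library stood far from the others in 9 of the 120 groups examined for the 20 members called in any comparison; chance alone gives about 1 in 20. The second 3x0Gy library was the highest of its group for Ldha (844 CPM, others 511 to 553), Pfkfb3 (352 CPM, others 227 to 231) and Egln1 (88.9 CPM, others 53.8 to 58.6). The second 1x20Gy library of day 5 was the highest for Slc2a1 (73.5 CPM, others 38.2 to 46.7), Hif1a (389 CPM, others 188 to 257) and Bnip3 (35.3 CPM, others 10.998 to 18.0). The first 3x4Gy library was the lowest for Slc2a1 (17.8 CPM, others 49.3 to 60.1) and Tpi1 (35.6 CPM, others 103 to 119). The third 1x0Gy library of day 5 was the highest for Egln3 (19.2 CPM, others 11.4 to 11.8). Ndrg1 was the one member whose response to 1x20Gy differed between the days by a test of the difference (day 13 minus day 5, log2 -1.13, adjusted p = 0.0450, edgeR). What set these libraries apart was not tested.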

How the results depend on the processing

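No called member reversed direction under any alternative run. With the epithelial and fibroblast covariate, 3, 0 and 7 members were called after 3x4Gy, after 1x20Gy at day 5 and at day 13, and 0 in the difference of days; 171, 98 and 366 of all genes were called in place of 1477, 1028 and 891. With the share of reads outside genes as a covariate the counts after 3x4Gy and 1x20Gy at day 5 were 6 and 3, with medians of -0.029 and -0.10. At an adjusted p below 0.01 the counts were 6, 1 and 7, and 0 in the difference of days, where limma voom and upper quartile scaling also gave 0. With only the groups compared in the fit, 10 were called after 1x20Gy at day 5. Scaling by library size moved the day 13 median to -0.67, and that of all genes from 0.01 to -0.23. The macrophage and neutrophil covariates, added after seeing the data, left 0 and 2 calls at day 13, and members with at least 90% unique windows, also added, gave 7. Leaving out 1 library gave 7 to 11 calls and medians of -0.32 to -0.15 after 3x4Gy, 1 to 7 and -0.30 to -0.17 after 1x20Gy at day 5, and 5 to 17 and -0.47 to -0.35 at day 13; the difference of days gave 0 to 1 and -0.28 to -0.11, the difference of regimens 0 and -0.16 to 0.08, and the mocks 0 and -0.00 to 0.28. Replicate numbers did not meet the bar for pairing the libraries, a correlation above 0.1 in every pair (-0.25 to 0.40). In 8 of 12 pairs, however, the irradiated library correlated best with the mock of its own number, out of 4 mocks. Whether same-numbered libraries were handled together was not tested. With the replicate block 7, 5 and 14 members were called. The calls of Ero1l, Mif and Pfkl after 3x4Gy, Egln3 after 1x20Gy at day 5, and Aldoa, Ankrd37, Gapdh and Pfkfb3 at day 13 ended. Kdm3a (adjusted p = 0.00743, edgeR), P4ha1 and Pfkfb4 were called at day 13. Other counts over all genes that moved by over 1.5 times were 667 (share outside genes) and 702 (only the groups compared) after 3x4Gy, 1590 (neutrophil covariate) after 1x20Gy at day 5, 1533 (library size), 0 (macrophage covariate) and 72 (neutrophil covariate) at day 13, and 228 (DESeq2), 3 (limma voom), 5 (upper quartile), 8 (replicate block), 14 (epithelial and fibroblast covariate), 85 (no low count filter) and 237 (only the groups compared) in place of 51 in the difference of days. At an adjusted p below 0.01 they were 665, 425, 290 and 1. Without 1 library the counts over all genes ran from 1132 to 1815, 556 to 1024, 306 to 1264 and 1 to 110 in these 4 comparisons. Where no other cause is given, the cause was not tested. Depth limits the test of Adm, P4ha2 and Ankrd37, at a few CPM, and the size of the falls of Car12.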
